A study of Mus musculus with 36 samples.

Results

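The livers of wild-type mice given carbon tetrachloride (CCl4) were compared with those of wild-type mice given oil alone. Libraries were chosen by their labelled genotype and treatment, which gave 17 of the 36 libraries of the study: 8 after oil (WT_oil) and 9 after CCl4 (WT_CCl4). Each library is 1 array of liver RNA, and libraries are named here by group and number. Per the labels, the mice were female C57BL/6 littermates of Dpt-null animals, aged 10 to 12 weeks. Treatment lasted 8 weeks, with 3 subcutaneous injections weekly of 0.1 ml/kg of either olive oil or CCl4. The CCl4 concentration was stepped up weekly from 2% to 4%, 5% and 6%, and stayed at 8% from week 5 on. Livers were collected 24 hours after the final dose. The other 19 libraries come from Dpt-null mice (KO) after oil (10, KO_oil) or CCl4 (9, KO_CCl4). They share the estimate of the spread and serve as a partial check. The labels do not state whether each library is a separate animal, so p-values measure the spread between these libraries.

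Hepatocytes near the central vein turn CCl4 into a reactive radical through cytochrome P450 enzymes, chiefly CYP2E1. The radical damages membranes, cells die, and surviving hepatocytes, macrophages and stellate cells take part in the repair. Repeated dosing lays down scar collagen, so the model is widely used for liver fibrosis. Dpt encodes dermatopontin, a small matrix protein that binds decorin and collagen fibrils.

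Values are log2 signals, so a difference of 1 is a doubling, and a gene's value is the mean of its probe sets. Array signal has no true zero, and levels of different genes are not compared. A gene is said to have risen or fallen after CCl4 where its Benjamini-Hochberg adjusted p in limma was under 0.05 over 23152 genes. The error after ± is the standard error of the log2 difference, with n = 8 libraries after oil and n = 9 after CCl4 where all libraries were used, and n = 5 and n = 9 without the Y-expressing libraries. No detection call per probe set was used, so a fold of a gene that reads low in 1 group, such as Sprr1a after oil or Slco1a1 after CCl4, may understate the change.

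The labels were checked first. Dpt read 5.59 to 6.48 (median 5.96) in the 8 WT_oil libraries. It read 7.48 to 10.12 (median 8.34) in WT_CCl4 2 to 9, all above the oil range. WT_CCl4 1 read 3.18, which lies within the 3.00 to 3.87 of 18 libraries labelled KO. KO_oil 10 read 7.40, above every other KO library and every WT_oil library. With the labels as given, Dpt was 1.91 ± 0.55 higher after CCl4 (adjusted p = 0.0102 in limma; exact permutation p = 0.013, two-sided, over 24310 splits). Without WT_CCl4 1 the difference was 2.50, which is given without a test because this library was singled out by its own Dpt value.

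The wider response of WT_CCl4 1 and KO_oil 10 was read on genes chosen without these 2 libraries. A fit that left out WT_CCl4 1 and KO_oil 10 called 6578 genes (28.4%), with 672 genes at least 2-fold higher and 367 at least 2-fold lower after CCl4. Relative to the WT_oil mean, WT_CCl4 1 stood at a median of 0.37 on the rises and -0.15 on the falls. WT_CCl4 2 to 9 stood at 1.06 to 2.28 on the rises and -3.36 to -0.92 on the falls, with WT_CCl4 3 at both extremes. These libraries also chose the genes, so their large shifts were set in advance. The 9 KO_CCl4 libraries, which did not enter the folds, stood at 1.00 to 2.28 and -3.28 to -0.82. KO_oil 10 stood at 1.70 and -1.33, against -0.05 to 0.13 and -0.24 to 0.06 in the other 9 KO_oil libraries. So the library labelled WT_CCl4 1 lay between the oil and CCl4 libraries on the rises. On the falls it lay within the range of those 9 KO_oil libraries, though below the WT_oil range of -0.04 to 0.04. The library labelled KO_oil 10 lay among the CCl4 libraries. The Dpt values of both go against their labels, and whether they were mislabelled or swapped was not tested, so WT and KO contrasts that include them rest on the labels as given. No library was moved, and list counts below are also given without WT_CCl4 1, or without both, where that changes a count by over 1.5 times.

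**Figure D1:**
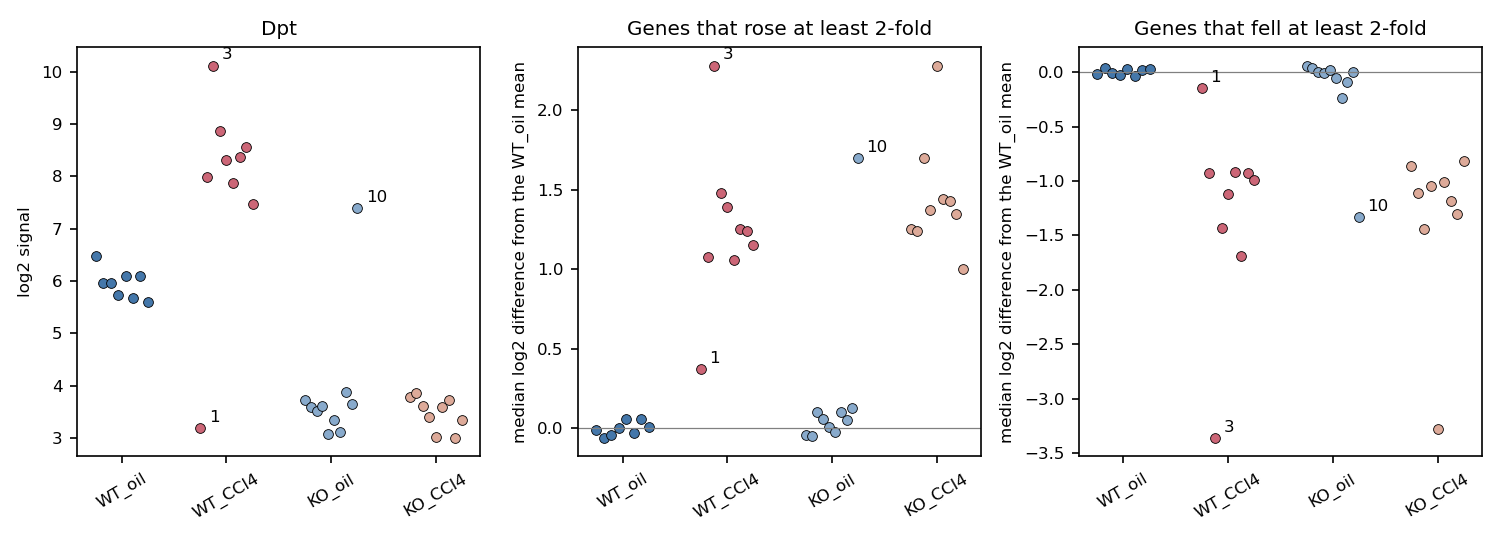
Dpt signal (left) and the median log2 difference from the WT_oil mean on the 672 genes that rose (middle) and the 367 that fell (right) at least 2-fold in a fit without WT_CCl4 1 and KO_oil 10. Points are single libraries, and numbers mark WT_CCl4 1, WT_CCl4 3 and KO_oil 10. WT_CCl4 1 has the lowest Dpt of its group (3.18) and the weakest shift (0.37 and -0.15), and KO_oil 10 stands at 1.70 and -1.33.

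Markers of sex and of other tissues also differed between libraries of a group. The mean of 3 Y-linked genes was 6.09 to 6.33 in WT_oil 1, 2 and 3 and Xist read 2.94 to 3.26 there, although the labels give female mice. The other 14 WT libraries read 2.34 to 3.06 for the Y-linked genes and 9.29 to 9.85 for Xist. The hepatocyte list averaged 10.94 to 11.19 after oil and 10.77 to 11.13 in 8 CCl4 libraries, but 8.67 in WT_CCl4 3. The mean of 11 pancreatic acinar markers was 3.62 to 3.84 after oil, and read 11.54 in WT_CCl4 4, 7.05 in WT_CCl4 5 and 5.20 in WT_CCl4 9. The mean of 8 skeletal muscle markers was 3.63 to 4.27 after oil, and read 10.17 in WT_CCl4 3, 8.04 in WT_CCl4 8, 5.56 in WT_CCl4 9 and 5.38 in WT_CCl4 4. The mean of 8 adipocyte markers was 4.21 to 4.80 after oil, and read 6.40 in WT_CCl4 3, 5.79 in WT_CCl4 9 and 4.83 in WT_CCl4 4. The other CCl4 libraries read 3.41 to 4.10 for the pancreatic list and 3.68 to 3.82 for the muscle list. The mean of 7 mesothelial markers was 3.91 to 4.40 after oil and 4.45 to 6.91 after CCl4, so these groups did not overlap. Of these lists, 1 of 11 pancreatic markers (Cpb1), 2 of 8 muscle markers (Acta1 and Myh1) and 3 of 7 mesothelial markers (Gpm6a, Upk1b and Wt1) rose, and 1 of 8 adipocyte markers (Car3) fell. Car3 read 10.98 to 11.50 after oil and 7.55 to 11.09 after CCl4, so its signal was strong in every oil liver. Its fall is not read as one of adipocytes, although it counts in that list's mean. Without WT_CCl4 1, 6 of 11 pancreatic and 6 of 8 muscle markers rose, and without WT_CCl4 3 and KO_CCl4 5 these counts were 6 and 0. None of either rose without the Y-expressing libraries (0 of 11 and 0 of 8), and 1 and 0 rose without the 7 libraries with other tissue markers. The part of these libraries in each result was not tested beyond the fits without them.

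After CCl4, 5666 of 23152 genes were called (24.5%), of which 3048 rose (13.2%) and 2618 fell (11.3%). The median log2 difference over all genes was -0.04. At least 2-fold changes were 531 rises (2.29%) and 270 falls (1.17%). The 17 libraries did not overlap for 647 genes that were higher after CCl4 (2.79%) and 197 that were lower (0.851%). With each array centred on its own median the median difference was -0.13, and 2358 genes rose (10.2%) and 5380 fell (23.2%), so the share of rises among calls went from 53.8% to 30.5%. Without WT_CCl4 1, 6378 genes were called (27.5%), of which 3366 rose (14.5%), and 97.4% of the calls were kept. Without WT_CCl4 3 and KO_CCl4 5, 5846 were called (25.3%), of which 2595 fell (11.2%). Without the 6 libraries of the study with Y-linked signal, 1941 rose (8.38%) and 1462 fell (6.31%). Without 7 libraries with markers of other tissues (5 of them WT_CCl4), 2114 rose (9.13%) and 1277 fell (5.52%). Leaving out 10 libraries together (those with Y-linked signal, WT_CCl4 1 and 3, KO_oil 10 and KO_CCl4 5) gave 3111 rises (13.4%) and 2480 falls (10.7%). Of the calls on all libraries, 89.5% were kept without WT_CCl4 3 and KO_CCl4 5 and 77.8% without the 10 libraries. Only 56.2% were kept without the Y-expressing libraries and 53.6% without the 7. Counts of a list in another fit are to be read against the share of all genes in that fit. Of the genes called both here and in a fit that left libraries out, 0 changed sign, which the shared libraries made likely beforehand. The centred fit is not in this count. Nor are genes that lacked a call in either fit, such as Cyp2b9 (1.90, and -1.11 without the Y-expressing libraries). Of the 192 genes named here, 35 lost their call without the 6 Y-expressing libraries, among them Nr4a1, Cdon, Il33, Casp4, Il1rap, Nlrp6, Mt1, Mt2, Nqo1, Akr1c13, Igfbp5, Tbx3, Nr0b2, Hgfac, Gys2, Adh4, Cyc1, Ndufs8 and Tmprss6. Without the 7 libraries with other tissue markers, 16 lost it with the same sign, among them Ccl5, Egfr, Fabp4, Tbx3, Cux2, Ugt2b38 and Serpina4-ps1. In that fit Myh1 lost its call and turned to -0.07, and Dpt differed by 0.90 (adjusted p = 0.236). Only WT_CCl4 1, 2, 6 and 7 remain after CCl4 there. Dpt read 3.18 in WT_CCl4 1 and 7.99, 7.88 and 8.37 in the others, against 5.59 to 6.48 after oil.

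The largest rise in signal was Sprr1a, a small proline-rich protein of the cornified envelope of squamous epithelia. Its log2 signal was 2.72 to 4.17 (median 3.40) after oil and 6.12 to 10.47 (median 8.88) after CCl4. The groups did not overlap, and the lowest CCl4 value was WT_CCl4 1. The difference was 5.57 ± 0.69, or 47.4-fold (adjusted p = 1.43e-06). Gpnmb, a transmembrane glycoprotein of lipid-handling macrophages, went from 3.07 to 4.05 (median 3.72) after oil to 6.64 to 9.22 (median 8.44), 23.2-fold higher (adjusted p = 2.93e-07). Mmp12, the macrophage elastase, went from 3.48 to 3.98 (median 3.76) to 5.71 to 8.01 (median 7.54), 12.6-fold higher. Ly6d, a small surface protein anchored by a lipid, was 14.7-fold higher and did not overlap either. Collagen I followed, with Col1a1 9.17-fold and Col1a2 6.27-fold higher, and so did Tnc (5.88-fold) and Thbs1 (6.29-fold), which encode the matrix proteins tenascin C and thrombospondin 1. Cd63, a tetraspanin of late endosomes, was 6.29-fold higher.

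Several of the largest rises encode proteins with little known part in scarring. S100g, the vitamin D-dependent calcium binder calbindin-D9k, read 2.53 to 3.52 after oil and 3.14 to 7.62 (median 6.72) after CCl4. The 1 overlapping CCl4 library was WT_CCl4 3, and the difference was 3.26 ± 0.51 (adjusted p = 2.66e-05). Akr1c18, which inactivates progesterone, was 8.37-fold higher and again lowest in WT_CCl4 3, at 3.27 against 2.74 to 3.39 after oil. Serpina7, which encodes the thyroxine carrier of plasma, was 6.03-fold higher. It read 5.70 to 7.26 after oil, 8.20 to 10.48 in 8 CCl4 libraries and 4.96 in WT_CCl4 3. Nucb2, the precursor of nesfatin-1, was 6.13-fold higher and Lilr4b, an inhibitory receptor of leukocytes, 6.36-fold. Itgam, the CD11b chain of myeloid cells, was 5.98-fold higher. In whole liver, more cells of a type and more RNA per cell cannot be told apart.

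The Sprr1a promoter is shown because it carries 2 matches to the AP-1 site, the sequence that JUN and FOS family proteins bind. It covers the 250 bases before the start at chr3:92485882-92486131 on the minus strand (RefSeq, GRCm38.p6), and the capitals mark the matches, which begin 146 and 116 bases before the start.
Sprr1a: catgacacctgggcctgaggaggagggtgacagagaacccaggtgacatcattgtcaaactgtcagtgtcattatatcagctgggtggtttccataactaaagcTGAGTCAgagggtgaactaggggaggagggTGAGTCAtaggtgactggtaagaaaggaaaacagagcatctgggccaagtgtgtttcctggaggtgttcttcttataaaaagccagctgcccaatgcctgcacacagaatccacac
The motif searched was TGANTCA on both strands, over 250 bases before to 50 after each start. It occurred in 8.97% of 27025 genes with a promoter entry. Of the 15 largest rises 12 had an entry, and 3 of these (Sprr1a, Gpnmb and Mmp12) held a match, which says nothing of whether a factor binds there.

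**Figure D2:**
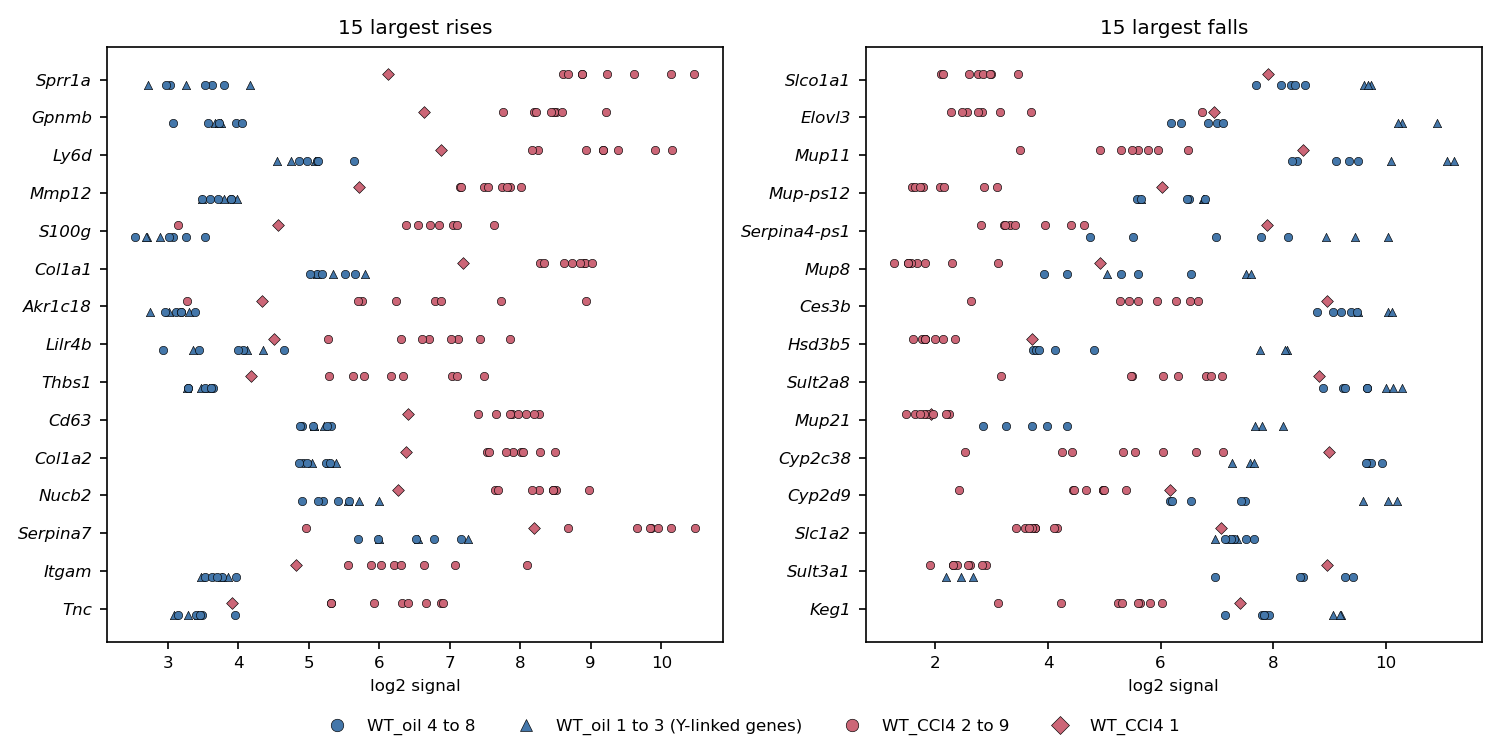
Log2 signal of the 15 genes with the largest rises (left) and falls (right) after CCl4, 1 point per WT library. Diamonds are WT_CCl4 1 and triangles the 3 oil libraries with Y-linked signal. Most rises separate the groups, with WT_CCl4 1 nearest to oil, and the triangles stand apart from the other oil libraries for falls such as Elovl3 and Mup21.

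Annexins and S100 proteins bind membranes and calcium, and 13 of 21 measured members rose and 2 fell (median log2 difference 0.63, against -0.04 over all genes). Anxa2 read 4.69 to 5.24 (median 4.81) after oil and 5.43 to 8.35 (median 7.62) after CCl4, with no overlap, and was 5.80-fold higher (adjusted p = 7.58e-06). Anxa3 was 4.91-fold and Anxa1 4.62-fold higher, while Anxa6 differed by 0.02 ± 0.09 (adjusted p = 0.871). Of 30 cytoskeleton genes and keratins, 19 rose and 0 fell (median 0.69). Flna, which crosslinks actin, was 3.89-fold higher, Tubb6, a beta-tubulin, 2.82-fold, Msn, which ties actin to the membrane, 2.63-fold, and Tpm1, a tropomyosin, 2.57-fold. Krt8, a keratin of hepatocytes and bile ducts, differed by 1.04 ± 0.42 and missed the threshold (adjusted p = 0.0645). It read 8.10 to 10.36 in 8 CCl4 libraries, above the 7.57 to 8.03 after oil, and 6.19 in WT_CCl4 3. Of 22 targets of the YAP and TEAD transcription factors, which respond to tension and cell contact, 11 rose and 1 fell (median 0.49). The membrane repair protein gene Myof read 3.61 to 4.25 after oil and 4.84 to 7.45 after CCl4 and was 5.76-fold higher. Ccdc80, a matrix protein gene, was 4.36-fold higher, and the best-known targets Ankrd1 and Ccn2 were 2.31-fold and 2.22-fold higher. Ccn1, another classical target, differed by 0.42 ± 0.21 (adjusted p = 0.132).

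Of 15 fetal and progenitor genes, 7 rose and 0 fell (median 0.65). Prom1, Cd24a, Epcam and Tspan8, surface proteins of immature and biliary epithelium, were 2.86-fold, 2.70-fold, 2.21-fold and 2.14-fold higher. Epcam read 3.41 to 4.09 after oil and 4.38 to 5.52 after CCl4 without overlap. The fetal serum protein gene Afp differed by 0.42 ± 0.20 and was not called (adjusted p = 0.121). In the Notch pathway 2 of 14 rose, the ligand gene Jag1 (0.72 ± 0.19) and the target Hes1 (0.61 ± 0.19), which is near the 13.2% of all genes. In the Hedgehog pathway 4 of 13 rose and 1 fell, with 2 falls without WT_CCl4 1 and 4 rises and 4 falls with arrays centred on their medians. The signal transducer Smo rose by 0.78 ± 0.15 and the coreceptors Boc and Cdon by 0.94 ± 0.25 and 1.05 ± 0.38, while Hhip, which traps the ligands, fell by 0.78. Of 24 growth factors and receptors of liver regeneration, 3 rose, close to the share of all genes, and 5 fell. Osmr, the oncostatin M receptor chain, was 3.26-fold higher, and Egfr, the leukaemia inhibitory factor receptor gene Lifr and the HGF activator Hgfac were 2.31-fold, 2.18-fold and 2.36-fold lower. Without WT_CCl4 3 and KO_CCl4 5, the 2 libraries with the lowest array weights, 7 of these 24 rose and 7 fell, and without WT_CCl4 1 and KO_oil 10, 5 rose. Without the 7 libraries with other tissue markers, 2 Hedgehog genes rose.

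Of 24 targets of p53, which arrests or kills damaged cells, 12 rose and 0 fell (median 0.57). Cdkn1a, the cell cycle inhibitor p21, read 4.14 to 4.97 (median 4.57) after oil and 5.75 to 7.68 (median 6.72) after CCl4, a 4.53-fold difference without overlap (adjusted p = 2.93e-07). The death receptor gene Tnfrsf10b was 2.63-fold, Eda2r 2.40-fold and the cyclin gene Ccng1 2.10-fold higher. Of 23 AP-1 and immediate early genes, 9 rose and 0 fell (median 0.35). Atf3, a stress-induced repressor, was 4.01-fold higher (4.37 to 5.38 after oil, 5.32 to 7.38 after CCl4), and Klf6, Ier3 and Nr4a1 were 2.38-fold, 2.26-fold and 2.10-fold higher. Jun differed by 0.92 ± 0.38 (adjusted p = 0.0696). Only 5 of the 23 rose without the Y-expressing libraries, and 5 without the 7 libraries with other tissue markers. Of 24 targets of NRF2, the regulator of antioxidant genes, 8 rose and 1 fell (median 0.11). The cystine importer gene Slc7a11 (2.60 to 2.79 after oil, 3.05 to 5.90 after CCl4) was 3.42-fold and the efflux pump gene Abcc4 3.32-fold higher, and Nqo1 2.06-fold, whereas Akr1c13 was 2.17-fold lower. The metal-binding metallothionein genes Mt2 and Mt1 were 2.40-fold and 2.02-fold higher, and the manganese exporter gene Slc30a10 2.28-fold lower. Of 11 metal genes, 4 rose and 3 fell, and 2 and 1 without the Y-expressing libraries.

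The unfolded protein response restores folding in the endoplasmic reticulum, and the integrated stress response slows translation and induces Ddit3. Of 26 measured genes of both, 16 rose and 0 fell (median 0.51). Derl3, which helps draw misfolded proteins out for degradation, read 3.23 to 4.82 (median 4.42) after oil and 4.90 to 7.40 (median 6.73) after CCl4, and was 4.72-fold higher (adjusted p = 1.4e-05). The groups did not overlap, and the lowest CCl4 values were those of WT_CCl4 1 and 3. Ddit3, a death-promoting transcription factor, was 2.42-fold higher without overlap, and Creld2 and Sdf2l1, both of the folding machinery, were 2.26-fold higher. Xbp1, a regulator of the response, differed by -0.26 ± 0.16 (adjusted p = 0.23), and Herpud1 by -0.40 ± 0.16 (adjusted p = 0.0667). Without the Y-expressing libraries 11 rose and 1 fell.

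Some genes of this response carry a promoter element, the endoplasmic reticulum stress response element, which ATF6 binds together with NF-Y. It was searched as CCAAT followed, after 9 bases of any kind, by CCACG, on both strands over 250 bases before to 50 after each start. It was found in 37 of 27025 genes (0.137%). Of the 24 listed genes with an entry 8 held it: Derl3, Creld2, Hspa5, Pdia6, Dnajc3, Hsp90b1, Calr and Canx, which encode folding factors, chaperones or their helpers. All 8 rose, by 0.33 to 2.24, and so did 7 of the 16 without a match, but Hspa5, Hsp90b1, Calr and Dnajc3 lost their call without the Y-expressing libraries. Hspa5, the master chaperone BiP, was 0.82 ± 0.21 higher and Pdia6, a disulfide isomerase, 0.71 ± 0.17. These 8 were named for the motif after their values were seen, and a match is a description, not a bound site. For 4 of them the 250 bases before the start are shown (RefSeq, GRCm38.p6, plus strand), with the element in capitals, so that its place can be compared. They lie at chr10:75893148-75893397 (Derl3), chr15:88819396-88819645 (Creld2), chr2:34771840-34772089 (Hspa5) and chr12:17266339-17266588 (Pdia6).
Derl3: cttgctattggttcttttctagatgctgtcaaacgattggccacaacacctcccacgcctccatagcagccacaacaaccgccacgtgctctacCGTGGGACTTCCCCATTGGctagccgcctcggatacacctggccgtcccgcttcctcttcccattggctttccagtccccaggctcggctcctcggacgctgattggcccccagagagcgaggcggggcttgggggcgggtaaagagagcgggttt
Creld2: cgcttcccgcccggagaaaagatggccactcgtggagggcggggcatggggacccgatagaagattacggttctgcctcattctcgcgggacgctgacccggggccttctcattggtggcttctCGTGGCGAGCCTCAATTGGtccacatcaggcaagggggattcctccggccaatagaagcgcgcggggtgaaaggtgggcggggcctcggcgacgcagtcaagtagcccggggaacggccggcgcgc
Hspa5: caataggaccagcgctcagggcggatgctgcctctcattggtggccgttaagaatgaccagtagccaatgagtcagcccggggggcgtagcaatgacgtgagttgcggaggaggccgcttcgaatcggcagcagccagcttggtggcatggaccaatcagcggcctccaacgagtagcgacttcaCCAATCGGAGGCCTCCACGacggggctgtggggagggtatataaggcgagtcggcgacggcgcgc
Pdia6: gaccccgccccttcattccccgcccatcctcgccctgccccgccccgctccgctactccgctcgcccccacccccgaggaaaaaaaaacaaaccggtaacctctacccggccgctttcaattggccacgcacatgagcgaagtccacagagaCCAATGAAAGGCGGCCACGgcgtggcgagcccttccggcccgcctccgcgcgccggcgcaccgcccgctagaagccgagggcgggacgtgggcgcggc
The element begins 156, 126, 65 and 98 bases before the start in Derl3, Creld2, Hspa5 and Pdia6.

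Several genes of leukocyte entry rose. Of 25 chemokines, 8 rose and 1 fell (median 0.25). There were 2 falls without WT_CCl4 1 and 3 with centred arrays, where 23.2% of all genes fell. Ccl6, made by myeloid cells, was 4.19-fold, Ccl3 3.14-fold, Cxcl14 2.69-fold and the T cell attractant Ccl5 2.33-fold higher. Of 18 chemokine receptors, 8 rose and 0 fell (median 0.29), with 1 fall without WT_CCl4 1. Ccr2, the receptor of inflammatory monocytes, read 2.73 to 3.30 after oil and 3.35 to 4.82 after CCl4 without overlap, a 2.51-fold difference. Cxcr4 was 2.94-fold, the lymph node homing receptor gene Ccr7 2.69-fold and Cx3cr1 2.13-fold higher. Of 23 integrins, 14 rose and 0 fell (median 0.54). Itgax, the CD11c chain, read 3.25 to 3.62 after oil and 3.97 to 5.72 after CCl4 and was 3.42-fold higher. The shared leukocyte chain gene Itgb2 was 3.25-fold higher, and Itga6, a laminin receptor chain of epithelium and vessels, 3.62-fold.

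Of 19 Toll-like receptors and adaptors, 7 rose and 1 fell (median 0.25). Cd14, the endotoxin coreceptor, read 3.68 to 4.75 (median 4.11) after oil and 4.94 to 8.39 (median 6.43) after CCl4, 5.28-fold higher without overlap. Tlr13, Tlr8 and Tlr1 were 3.75-fold, 2.29-fold and 2.25-fold higher, and the shared adaptor Myd88 differed by -0.02 ± 0.15 (adjusted p = 0.942). Of 33 lysosomal genes, 14 rose and 3 fell (median 0.31). With centred arrays 8 fell and without the 7 libraries 1, while 23.2% and 5.52% of all genes fell in those fits. Among the rises were the protease genes Ctss (3.06-fold), Lgmn (2.20-fold) and Ctsk (2.02-fold), beside Cd63. Of 13 genes of MHC class II presentation, 9 rose and 0 fell (median 0.63). The invariant chain gene Cd74 read 7.50 to 9.14 after oil and 9.02 to 11.28 after CCl4, 2.35-fold higher (adjusted p = 0.00284), with slight overlap. This count was 3 of 13 without the Y-expressing libraries, 4 without the 7 libraries with other tissue markers and 5 without the 10 libraries, so it depended on which libraries were kept. Of 19 inflammasome and IL-1 genes, 6 rose and 4 fell. The alarmin gene Il33 and the caspase gene Casp4 were 1.95-fold and 1.83-fold higher, and the epithelial sensor gene Nlrp6 and the receptor chain gene Il1rap 2.40-fold and 1.72-fold lower. Of these 19, 3 rose and 0 fell without the Y-expressing libraries.

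Among hepatocyte genes, the largest fall was that of Slco1a1, which takes up organic anions from blood. It read 7.70 to 9.73 (median 8.47) after oil and 2.10 to 3.47 in WT_CCl4 2 to 9, but 7.90 in WT_CCl4 1. The difference was -5.46 ± 0.69, or 44.0-fold lower (adjusted p = 1.81e-06), and -6.03 without WT_CCl4 1. Slc1a2, a glutamate transporter of pericentral hepatocytes, read 6.97 to 7.65 after oil and 3.44 to 4.16 in WT_CCl4 2 to 9, with 7.07 in WT_CCl4 1, and was 8.92-fold lower. Ces3b, a carboxylesterase, was 11.5-fold lower, the sulfotransferase gene Sult2a8 10.6-fold and Keg1, a glycine acyltransferase relative, 7.33-fold. Cyp2c38 was 9.47-fold lower. Elovl3, which lengthens fatty acids, was 21.0-fold lower (adjusted p = 0.000416). The major urinary protein genes Mup11, Mup-ps12, Mup8 and Mup21 fell by 3.36 to 3.91 on the log2 scale, and the pseudogene Serpina4-ps1 was 12.3-fold lower. Mup genes are near-identical copies, so their probe sets may share signal.

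Many of these genes differ between the sexes, and the 3 oil libraries with Y-linked signal stood apart for them. Elovl3 read 10.21 to 10.90 in those 3, 6.19 to 7.10 in the other 5 oil libraries and 2.28 to 6.95 after CCl4. WT_CCl4 1 (6.95) and WT_CCl4 9 (6.73) lay within the range of those 5, and the remaining CCl4 libraries read 2.28 to 3.70. The fall was -4.40 with all libraries and -2.98 ± 0.72 without the Y-expressing ones (adjusted p = 0.00676). Hsd3b5, a steroid dehydrogenase, fell by 3.45 and by 1.94 ± 0.52 in the same fits. Mup21 fell by 3.36 and 1.76, and Cyp2d9 by 3.24 and 2.05. Cyp4a12a, a fatty acid hydroxylase, fell by 2.06 with all libraries, and differed by -0.41 ± 0.28 without them (adjusted p = 0.335). Of 23 male-biased liver genes, 17 fell and 0 rose (median -1.86), and 10 fell and 1 rose without the Y-expressing libraries (median -0.96). Slco1a1, also of this list, kept a difference of -4.91 ± 0.78.

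Female-biased genes moved the other way between the fits. Of 29 measured, 2 rose and 5 fell with all libraries (median 0.06), and 1 rose and 11 fell without the Y-expressing ones (median -1.28). Cyp2b9 read 3.01 to 3.81 in the 3 oil libraries with Y-linked signal, 11.34 to 11.43 in the other 5 and 6.64 to 11.44 after CCl4. Its difference was 1.90 ± 1.28 with all libraries (adjusted p = 0.279) and -1.11 ± 0.65 without the Y-expressing ones (adjusted p = 0.252), so it was called in neither. Sult3a1, a sulfotransferase, fell by 3.05 with all libraries and by 5.33 ± 0.92 without them (adjusted p = 0.000577). Without WT_CCl4 3 and KO_CCl4 5 it was not called (adjusted p = 0.0633). Cux2, a transcription factor that favours female patterns in liver, fell by 1.03 and by 1.64 ± 0.26.

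**Figure D3:**
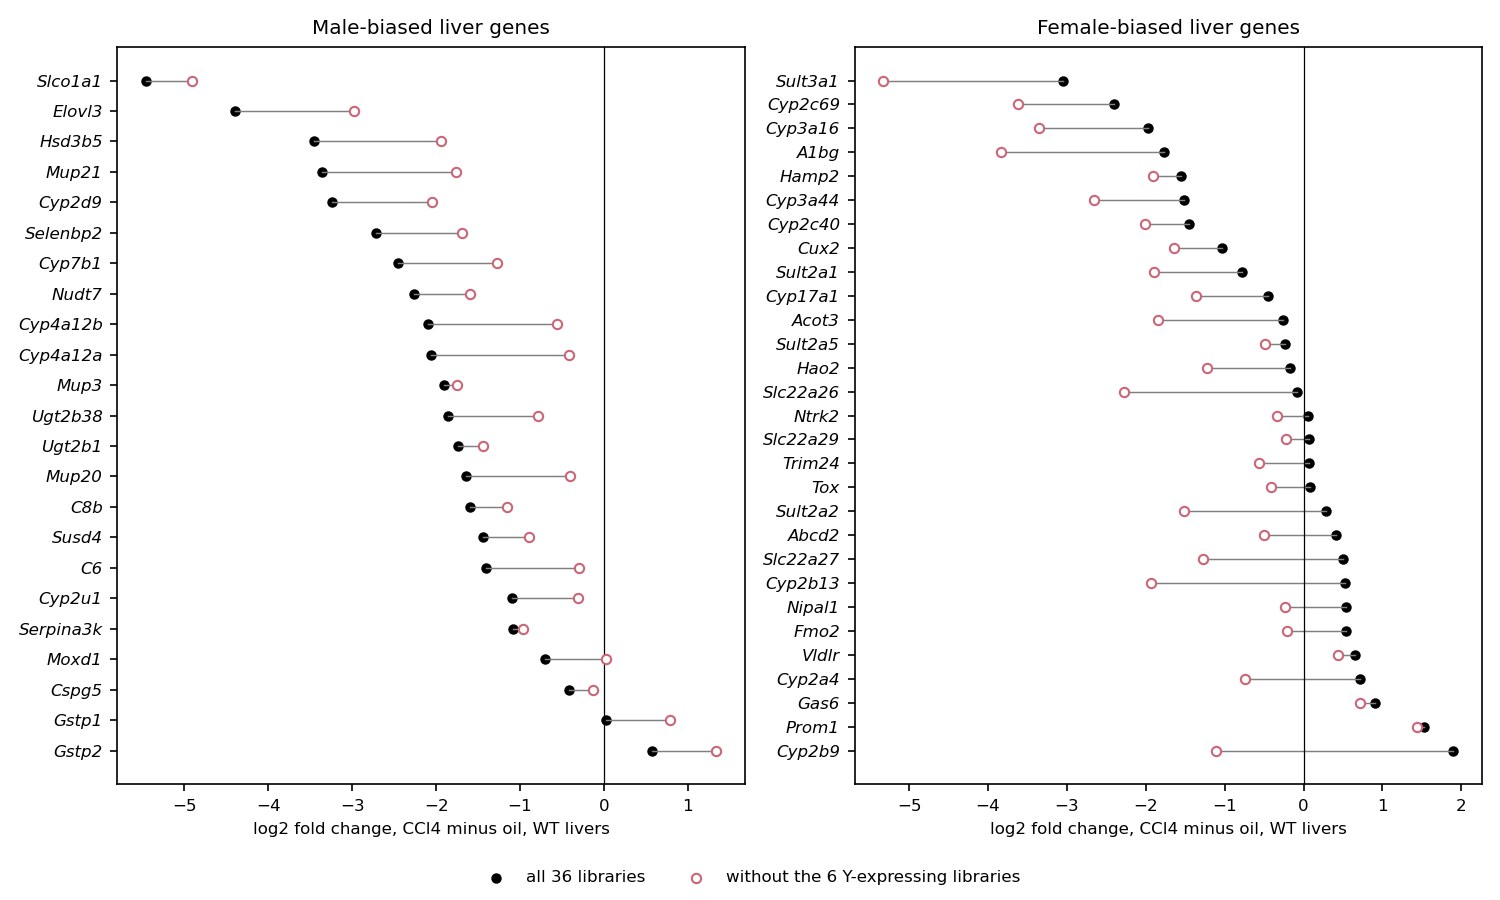
Log2 difference between CCl4 and oil for 23 male-biased (left) and 29 female-biased (right) liver genes, with all 36 libraries (filled) and without the 6 libraries with Y-linked signal (open). Most male-biased falls shrink (median -1.86 to -0.96) and most female-biased genes shift down (median 0.06 to -1.28).

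Hepatocyte regulators and secreted proteins behaved unevenly. Of 26 hepatocyte transcription factors, 5 fell and 0 rose (median -0.66). Cebpa, a master regulator of metabolic genes, read 8.73 to 9.07 (median 8.94) after oil and 5.73 to 8.36 (median 7.23) after CCl4, 3.41-fold lower without overlap (adjusted p = 7.82e-06). Tbx3 and the bile acid-induced repressor Nr0b2 fell by 0.67 and 0.86. Hnf4a, which defines hepatocyte identity, differed by -0.74 ± 0.36 (adjusted p = 0.136). It read 7.88 to 8.42 in 8 CCl4 libraries against 8.28 to 8.71 after oil, and 4.98 in WT_CCl4 3. Of 25 coagulation proteins, 2 fell, F7 (2.30-fold) and F10 (2.13-fold), which is close to the 11.3% of all genes, although the list's median was -0.80. Their mean signal was 9.97 to 10.15 after oil, 9.23 to 10.01 in 8 CCl4 libraries and 6.18 in WT_CCl4 3. Without WT_CCl4 3 and KO_CCl4 5, 15 of the 25 fell with a smaller median of -0.35, and 13 of the 26 transcription factors fell. Of the latter, 8 fell without WT_CCl4 1 and 2 without the Y-expressing libraries.

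The same 2 libraries bore on the other secreted proteins. Of 27 complement proteins, 4 rose and 9 fell (median -0.54). The anaphylatoxin receptor gene C3ar1 and the terminal component C7 were 4.02-fold and 3.13-fold higher, C8b and C6 3.01-fold and 2.66-fold lower, and C3 differed by 0.06 ± 0.05. C6 read 9.05 to 9.39 in the 3 oil libraries with Y-linked signal, 6.02 to 6.44 in the other 5 and 5.61 to 6.79 after CCl4. Both C6 and C8b are on the male-biased list and lost their call without the Y-expressing libraries (-0.30 ± 0.21, adjusted p = 0.345, and -1.16 ± 0.61, adjusted p = 0.198). Of 23 genes of apolipoproteins and lipoprotein handling, 5 fell and 0 rose. Apom and Apoc1 were 2.30-fold and 1.91-fold lower, and Apob, the core protein of VLDL, differed by -0.29 ± 0.40 (adjusted p = 0.615). Without WT_CCl4 3 and KO_CCl4 5, 15 complement genes and 11 apolipoprotein genes fell. These counts were 2 and 0 without the Y-expressing libraries. Albumin mRNA (Alb) read 12.28 to 12.54 after oil and 11.54 to 12.54 after CCl4, a difference of -0.14 ± 0.11 (adjusted p = 0.363).

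**Figure D4:**
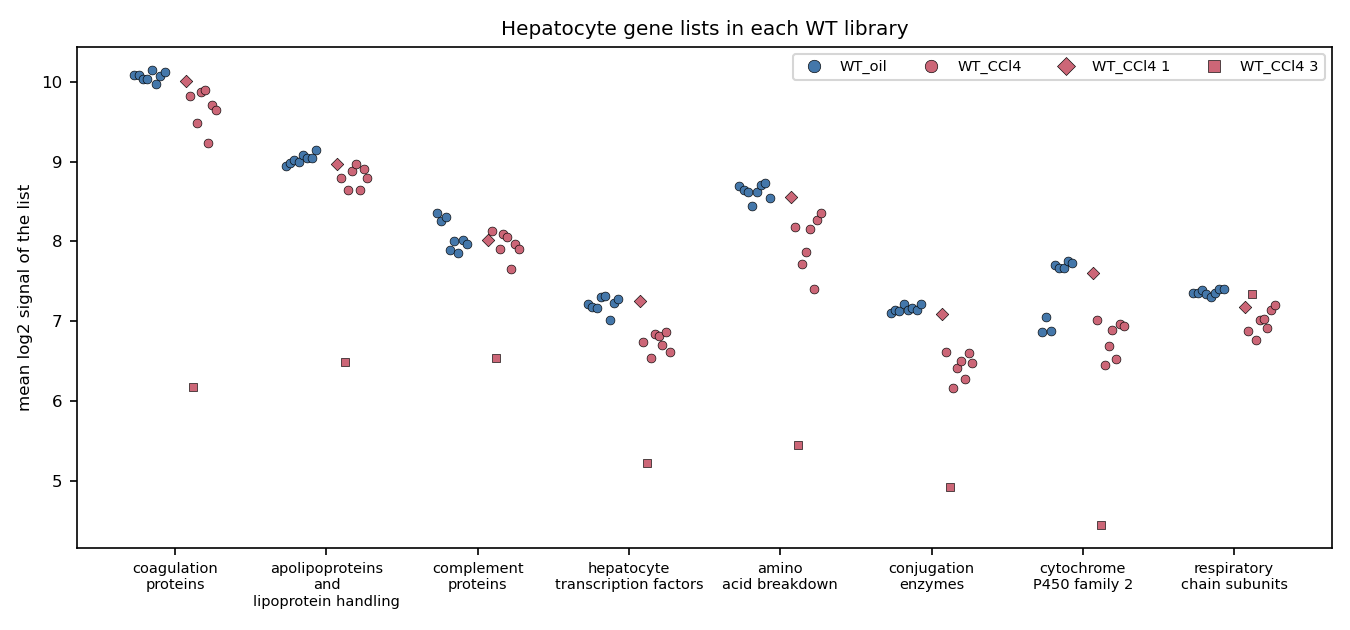
Mean log2 signal of 8 hepatocyte gene lists in each WT library, oil in blue and CCl4 in red. The square is WT_CCl4 3, which lies far below the other libraries in all but the respiratory chain list (6.18 against 9.23 to 10.01 for coagulation proteins), and the diamond is WT_CCl4 1, which lies within or near the oil range in most lists.

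Many enzymes and transporters of drug and hormone clearance fell. Of 41 genes of cytochrome P450 family 2, 18 fell and 0 rose (median -0.82). Of 21 genes of families 1, 3 and 4, 8 fell and 2 rose (median -1.07). Cyp1a2, a pericentral enzyme that oxidises caffeine, read 9.88 to 10.65 (median 10.38) after oil, 4.48 to 9.21 in WT_CCl4 2 to 9 and 10.20 in WT_CCl4 1. It was 4.60-fold lower (adjusted p = 0.00375), and Cyp4f14 was 4.95-fold and Cyp2c54 4.61-fold lower. Cyp2a12 and Cyp2d26, both highly expressed in liver, differed by -0.48 ± 0.43 and -0.60 ± 0.46 and were not called. Of 43 conjugation enzymes, 21 fell and 0 rose (median -0.74), with Ugt2b38 and Ugt2b1, which glucuronidate steroids, 3.63-fold and 3.35-fold lower. Both are male-biased genes, and without the Y-expressing libraries Ugt2b38 fell by 0.78 ± 0.23 and Ugt2b1 was not called (-1.44 ± 0.71, adjusted p = 0.164). Without the Y-expressing libraries 13 fell and 1 rose. Of 32 uptake and efflux transporters, 12 fell and 5 rose. The organic anion transporter genes Slc22a28, Slc22a7 and Slc22a30 were 4.43-fold, 4.05-fold and 3.57-fold lower. Without the Y-expressing libraries 7 transporters fell and 3 rose, and of the P450 families 1, 3 and 4 there were 5 falls and 0 rises. Of 26 alcohol and aldehyde dehydrogenases, 9 fell and 4 rose. Adh4 was 3.38-fold and the folate enzyme gene Aldh1l1 2.68-fold lower, whereas Aldh1a2, which makes retinoic acid, and Aldh18a1, which makes proline precursors, were 2.52-fold and 2.38-fold higher. Of these 26, 5 fell without the Y-expressing libraries.

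Of 40 enzymes of amino acid breakdown, 17 fell and 0 rose (median -0.79). Gnmt, which disposes of methyl groups, and Haao, of the kynurenine pathway, were 3.72-fold and 3.64-fold lower. Haao read 9.78 to 10.10 after oil and 5.64 to 9.56 after CCl4 without overlap. Sds and Afmid, of serine and kynurenine breakdown, were 3.13-fold and 3.12-fold lower. Without the 10 libraries 27 of the 40 fell. Of 31 glucose genes, 10 rose and 6 fell (median 0.12). Pkm, the pyruvate kinase of tissues other than adult hepatocytes, read 5.34 to 5.77 after oil and 6.08 to 8.82 after CCl4 and was 3.23-fold higher. Glycogen synthase (Gys2), fructokinase (Khk) and glycogen phosphorylase (Pygl) of liver were 3.07-fold, 2.72-fold and 2.65-fold lower. Pck1, of gluconeogenesis, differed by -0.56 ± 0.29 (adjusted p = 0.156). Without the Y-expressing libraries 7 glucose genes rose and 2 fell, and without the 7 libraries with other tissue markers 5 rose.

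Of 66 nuclear-encoded subunits of the respiratory chain, 34 fell and 0 rose, by small amounts (median -0.32). Sdhd, which anchors succinate dehydrogenase, read 8.39 to 8.70 after oil and 7.75 to 8.09 after CCl4 without overlap, a difference of -0.61 ± 0.10 (adjusted p = 3.05e-05). Cyc1 and Cox6b1 of complexes III and IV fell by 0.57 each, and Ndufs8 of complex I by 0.56. WT_CCl4 3 was not low here, at a list mean of 7.34 against 6.76 to 7.20 in the other CCl4 libraries and 7.31 to 7.41 after oil. Of the 66, 19 fell without the Y-expressing libraries.

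Of 18 circadian clock genes, 3 rose and 8 fell. The activators Arntl (BMAL1) and Npas2 were 2.29-fold and 1.88-fold higher, while their outputs Dbp and Nr1d1 were 2.45-fold and 1.71-fold lower. Nr1d1 read 7.90 to 8.30 after oil and 6.87 to 7.82 after CCl4 without overlap, and WT_CCl4 1 was the highest CCl4 value. The labels give no hour of day for either group. Of 23 genes of the growth hormone and IGF axis, 5 rose and 9 fell. The growth hormone receptor gene Ghr read 8.61 to 9.06 after oil and 6.43 to 8.42 after CCl4, 2.43-fold lower without overlap (adjusted p = 4.66e-05). Igfals, which stabilises IGF1 in plasma, was 2.34-fold lower and the IGF-binding protein gene Igfbp5 2.73-fold higher. Without the Y-expressing libraries 2 of the 23 rose and 6 fell.

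Of 25 iron genes, 4 rose and 5 fell. The siderophore binder gene Lcn2 read 5.60 to 6.56 after oil and 6.69 to 9.12 after CCl4 without overlap, 4.76-fold higher, and the transferrin receptor gene Tfrc was 2.25-fold higher. Hamp2, a gene of the hepcidin family, and Tmprss6, a suppressor of hepcidin, were 2.93-fold and 2.55-fold lower. Hamp2 is also on the female-biased list, and fell by 1.91 ± 0.49 without the Y-expressing libraries. Of the 25, 9 fell without WT_CCl4 3 and KO_CCl4 5, and 2 without the Y-expressing libraries. Of 27 genes of lipid droplets and lipases, 5 rose and 4 fell, near the 13.2% and 11.3% of all genes. Lpl, which frees fatty acids from lipoproteins, read 4.52 to 6.15 after oil and 5.74 to 9.34 after CCl4 and was 5.49-fold higher. Cidec and Fabp4, also adipocyte genes, were 4.36-fold and 4.22-fold higher and the fatty acid carrier Cd36 3.55-fold. Fabp4 was highest in WT_CCl4 3, at 10.63 against 4.67 to 6.38 after oil, the library with the highest adipocyte markers. The droplet coat gene Plin2 differed by 0.13 ± 0.18 (adjusted p = 0.629).

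**Figure D5:**
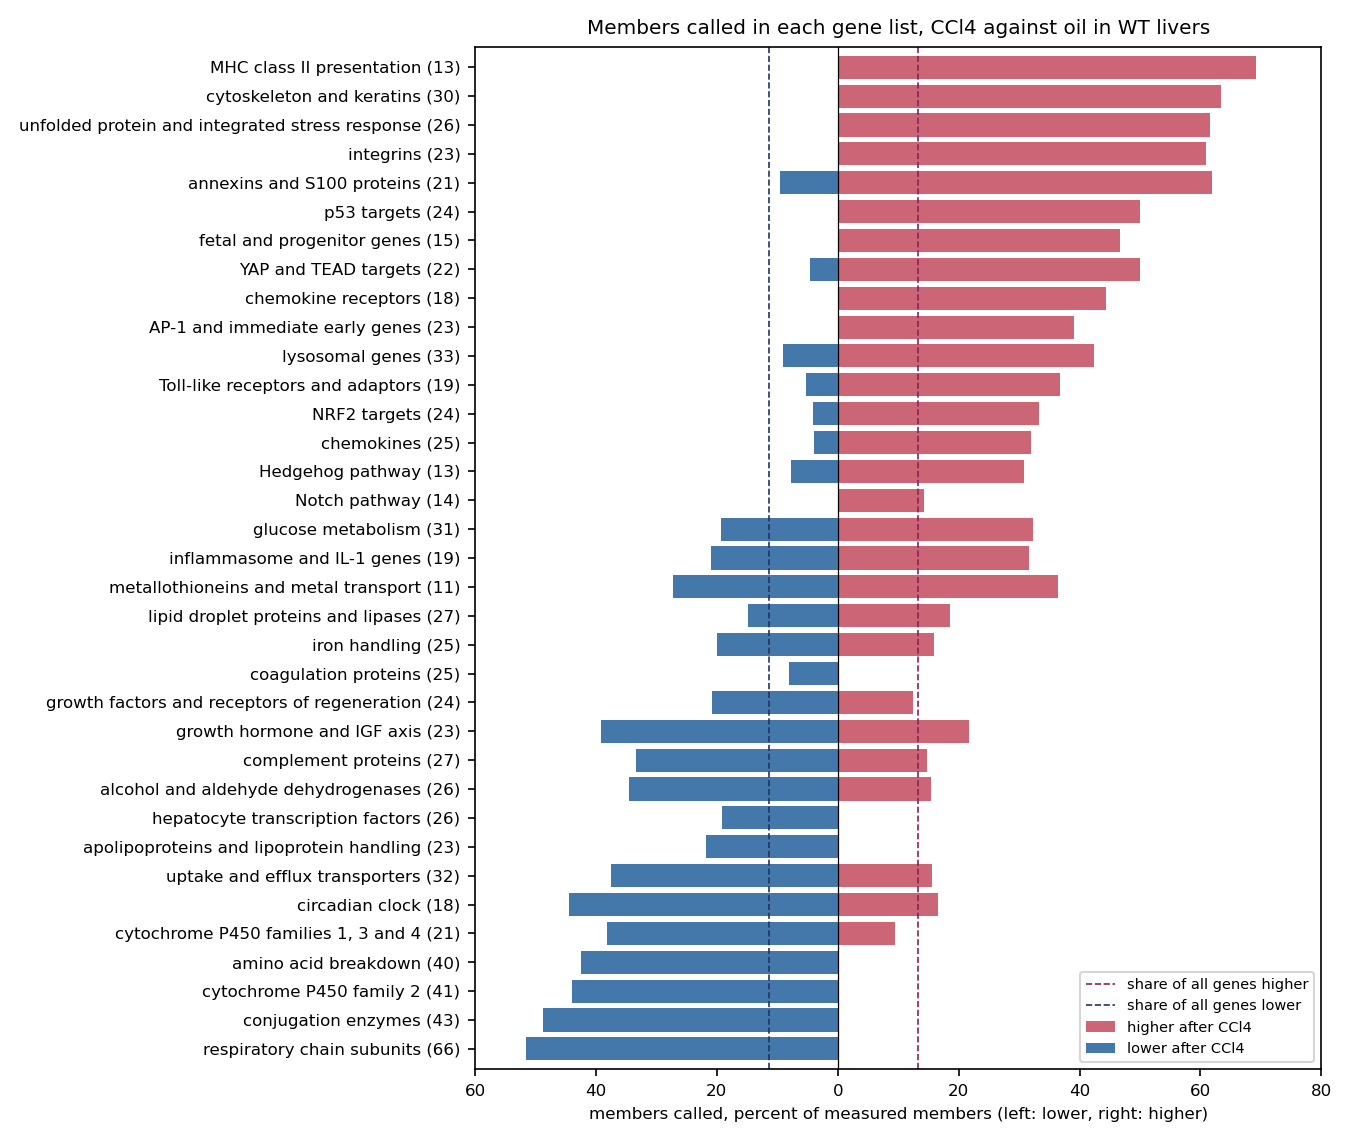
Share of measured members called higher (right) and lower (left) after CCl4 in 35 gene lists, with the number measured in brackets. Dashed lines are the shares over all 23152 genes, 13.2% higher and 11.3% lower. The highest shares of rises are those of MHC class II presentation (9 of 13), the cytoskeleton (19 of 30), annexins and S100 proteins (13 of 21), the unfolded protein response (16 of 26) and integrins (14 of 23). The highest shares of falls are those of the respiratory chain (34 of 66) and conjugation enzymes (21 of 43). For lipid droplet genes both shares lie near the dashed lines.

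Further counts moved by over 1.5 times, and by at least 2 genes, in other fits. The shares of all genes called moved too. Without the Y-expressing libraries 6.31% of all genes fell, and with centred arrays 23.2%. Without the 7 libraries 9.13% rose and 5.52% fell, and without the 10 libraries 13.4% rose and 10.7% fell. Counts near these shares are not read as results about a list. Without the Y-expressing libraries 3 growth factor and receptor genes and 2 lipid droplet genes fell. Without the 7 libraries with other tissue markers 5 growth factor and receptor genes rose, 8 coagulation genes and 5 genes each of P450 families 1, 3 and 4 and of the growth hormone axis fell, and 1 female-biased gene fell. Without WT_CCl4 3 and KO_CCl4 5, 4 genes of P450 families 1, 3 and 4 rose. With arrays centred on their medians 11 hepatocyte transcription factors and 53 respiratory chain subunits fell. Without the 10 libraries there were falls of 13 transcription factors, 13 coagulation, 13 apolipoprotein, 15 female-biased, 10 iron and 7 lipid droplet genes, and rises of 7 growth factor and receptor, 4 Notch, 9 transporter, 7 iron, 2 apolipoprotein, 2 conjugation and 2 male-biased genes. Of the 191 genes named beside Dpt, 19 differed in fold by over 1.5 times without the Y-expressing libraries, among them Mt1 (0.35), Mt2 (0.59), Cyp2c38 (-4.08), Mup11 (-3.22), Mup8 (-2.95) and Serpina4-ps1 (-2.56). Without the 7 libraries 28 did, among them Acta1 (0.07), Myh1 (-0.07), Cpb1 (0.56), Fabp4 (0.84), Ccl5 (0.58), Igfbp5 (0.79), Ces3b (-2.43), Slco1a1 (-4.49), Cyp2c54 (-1.10), Cyp1a2 (-1.41) and Cyp4f14 (-1.55) on the log2 scale. This fit keeps only WT_CCl4 1, 2, 6 and 7 after CCl4. WT_CCl4 1, with the weakest shift (0.37 and -0.15), therefore weighs more in it than among all 9. For Slco1a1 it read 7.90, against 2.10 to 3.47 in WT_CCl4 2 to 9. Its part in these changes was not tested. Without WT_CCl4 1 only Sult3a1 did (-3.77), and without WT_CCl4 3 and KO_CCl4 5 only Acta1 (1.38) and Myh1 (1.32).

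The same treatment in KO livers served as a partial check, with libraries of its own. There 5389 genes were called (23.3%). Sprr1a, Gpnmb and Mmp12 differed by 4.41, 4.54 and 3.62, against 5.57, 4.54 and 3.65 in WT, and Slco1a1 by -5.33 against -5.46. As in WT, the KO libraries with Y-linked signal were all oil libraries. KO_oil 10, which lay among the CCl4 libraries (1.70 on the rises and -1.33 on the falls), also stayed in the oil group. Slco1a1 is on the male-biased list, so its similar fall in KO is not an independent check. Genes whose CCl4 difference itself differed between genotypes in limma numbered 0 after adjustment, and 1356 at an unadjusted p under 0.05 (5.86%). Without WT_CCl4 1 and KO_oil 10 the Dpt change was 2.52 smaller in KO, a value given without a test because both libraries were singled out by their own Dpt values. A count of 0 does not show that the genotypes respond alike.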

How the data were processed

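RNA from 36 livers was measured on Affymetrix MoGene-2_0-st arrays, labelled with biotin using the WT PLUS kit per the labels' protocols. The values are log2 signals that the authors deposited after RMA (background correction, quantile normalization and summarization of probes), per the submitters' processing notes. Neither the version of RMA nor the genome build is stated in the labels. Of 269479 probe sets, 233753 named 1 gene symbol, 5139 several and 30587 none, and the first kind was averaged into 23152 genes after 2197 symbols were updated. There was no filter on low values. A further table held 36 columns that match no sample and was not used.

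Groups follow the titles. One mean per group was fitted on all 36 arrays with limma 3.58.1 (lmFit and eBayes, R 4.3.3), with p-values adjusted by Benjamini-Hochberg over all genes and a threshold of 0.05. On simulated data with 200 changed genes among 23152 for CCl4 against oil in WT, 91% of 2-fold and 74% of 1.5-fold changes were recovered, and 5.17% of calls were false. The simulated noise was normal, independent between genes and equally wide in all groups. It held no outlying libraries, so these rates may not hold for the real data. Dpt was also tested by exact permutation of the libraries. No 2 arrays were identical. The number of arrays limits the precision. Tables were handled with Python 3.11.15, numpy 2.4.6 and pandas 2.3.3.

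Members and gene lists were chosen with earlier results of these data known. The text names Dpt, the 15 called genes that rose most and the 15 that fell most (leaving aside provisional symbols, small RNAs, and segments of immunoglobulin or T cell receptor genes), and from each list up to 4 called members by size of change and up to 2 not called with the highest mean. A further 18 genes lie outside this rule, namely those in the closing observations, those named for a promoter element, and Xist.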

Additional observations from a re-analysis of the deposited data

Results flagged for a closer look

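Within each group, the highest and lowest library of each named gene was compared with the next one by Dixon's test. Chance picks out about 1 in 20 groups, and 80 of 384 gene and group pairs (20.8%) were picked out. Values are log2 signals. WT_CCl4 1 was singled out by its own Dpt value, so its flag for Dpt, which counts among the 80, is no separate result. WT_CCl4 1 was far below the other CCl4 libraries for 16 genes that were higher after CCl4, namely Anxa2 (5.43), Atf3 (5.32), Ccdc80 (5.44), Ccr2 (3.35), Cd63 (6.40), Col1a1 (7.18), Col1a2 (6.38), Dpt (3.18), Eda2r (2.90), Itgax (3.97), Lpl (5.74), Mmp12 (5.71), Myof (4.84), Nucb2 (6.26), Sprr1a (6.12) and Tlr13 (5.04). It was far above them for 10 genes that were lower after CCl4, namely Cux2 (5.83), Cyp7b1 (6.25), Hsd3b5 (3.72), Lifr (9.44), Mup-ps12 (6.02), Mup8 (4.93), Serpina4-ps1 (7.89), Slc1a2 (7.07), Slco1a1 (7.90) and Sult3a1 (8.95).

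WT_CCl4 3 was far below the other CCl4 libraries for 29 genes, nearly all of hepatocytes, namely Adh4 (3.59), Akr1c13 (3.62), Alb (11.54), Apob (8.68), Apoc1 (6.93), Apom (4.04), C8b (4.48), Canx (9.40), Cyp1a2 (4.48), Cyp2a12 (7.84), Cyp2b9 (6.64), Cyp2c54 (3.22), Cyp2d26 (6.24), Cyp2d9 (2.41), Cyp4f14 (3.19), Dnajc3 (8.28), F10 (5.91), Gnmt (4.75), Gys2 (4.47), Herpud1 (8.76), Hgfac (4.44), Hnf4a (4.98), Il1rap (4.30), Khk (5.22), Pck1 (7.99), Serpina7 (4.96), Slc22a28 (2.75), Tmprss6 (4.28) and Ugt2b1 (4.83). It was far above them for 11 genes, namely Aldh1a2 (6.78), Boc (5.70), Ccl6 (8.85), Ccng1 (9.82), Cd36 (10.15), Cdon (7.48), Gpm6a (7.90), Igfbp5 (8.59), Pdk4 (10.74), Upk1b (7.86) and Wt1 (6.59). The mesothelial markers Gpm6a, Upk1b and Wt1 are among the latter.

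Single values in other libraries were Apom (8.24) in WT_oil 8, Ccdc80 (4.85) in WT_oil 4, Ccl6 (4.34) in WT_oil 2, Ctss (7.33) in WT_oil 2, Cyp4f14 (8.39) in WT_oil 1, Dnajc3 (8.69) in WT_oil 6, Itga6 (4.60) in WT_oil 4, Khk (8.66) in WT_oil 1, Nr4a1 (6.10) in WT_oil 7, Nupr1 (5.51) in WT_oil 2, Saa3 (5.76) in WT_oil 1, Slc22a30 (4.48) in WT_oil 6, Tfrc (6.90) in WT_CCl4 7, Tnc (3.95) in WT_oil 7. Oil libraries account for all of these but Tfrc, which was highest in WT_CCl4 7.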

How the results depend on the processing

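Leaving out each WT library in turn gave 4755 to 6378 genes called, 2666 to 3366 higher, 2020 to 3012 lower, 0 to 0 with a different effect in KO, and a Dpt difference of 1.63 to 2.50. Counts moved by over 1.5 times without the 6 Y-expressing libraries (3403 called, 1941 higher, 1462 lower), without the 7 libraries with other tissue markers (3391 called, 1277 lower) and for genes with a mean of at least 5 (3344 called, 1971 higher, 1373 lower). The last fit tests fewer genes and the first pair use fewer libraries. Centring each array on its median gave 5380 lower, and moved the median difference over all genes from -0.04 to -0.13. Taking the median of the probe sets gave 1690 lower, and the cause of that was not tested. Dpt was 0.90 higher without the 7 libraries (adjusted p = 0.236). That fit keeps WT_CCl4 1 (3.18) beside WT_CCl4 2, 6 and 7 (7.99, 7.88 and 8.37). Without the 10 libraries, and without WT_CCl4 1 and KO_oil 10, 1 gene, Dpt, differed in its effect between genotypes. Both of these fits leave out the libraries singled out by their own Dpt values. The fits that leave out WT_CCl4 1 with KO_oil 10, and WT_CCl4 3 with KO_CCl4 5, were chosen after seeing the data. With the replicate number as a block 5820 genes were called (3160 higher, 2660 lower). Same-numbered libraries deviated together with correlations of -0.09 to 0.14, and 1 of 8 correlated best with its own number, so the numbers do not pair libraries. Genes that changed sign were not called in the fit on all libraries, except Myh1. Anxa6 read -0.07 centred, -0.03 by the median of probe sets, -0.11 without the 7 libraries, -0.02 without the 10, -0.03 without WT_CCl4 3 and KO_CCl4 5, and -0.03 to -0.00 in 4 fits without 1 library. Myd88 read 0.13 by the median of probe sets, 0.17 and 0.11 without the Y-expressing libraries or with Y expression as a covariate, 0.18 without the 10, 0.00 without WT_CCl4 1 and KO_oil 10, and -0.08 to 0.06 in fits without 1 library. Apob read 0.04 with array weights, 0.10 without the 7 libraries, 0.11 without the 10, 0.07 without WT_CCl4 3 and KO_CCl4 5, and -0.36 to 0.07 in fits without 1 library (0.07 without WT_CCl4 3). Cyp2b9 read -1.11 without the Y-expressing libraries, -0.76 with the covariate and -0.75 without the 10, where it was called (adjusted p = 0.00107). Alb read 0.02 and Myh1 -0.07 without the 7 libraries, C3 -0.03 centred, and Plin2 -0.03 (without WT_CCl4 7) to 0.20 in fits without 1 library. Most genes have means near background, which limits what dim genes can show: 63.6% of genes have a mean under 5.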

Other observations

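Genes below were picked after their values were seen, from the largest called changes outside the genes described above. Among matrix, repair and scavenger genes, Gpx3 (secreted glutathione peroxidase), Acta2 (smooth muscle actin), Chil3 (a chitinase-like protein of macrophages), Saa3 (an acute phase protein) and Marco (a scavenger receptor of macrophages) rose by 2.51, 2.45, 2.44, 2.40 and 2.31 on the log2 scale. Pdk4, which restrains pyruvate use, and Nupr1, a stress-induced nuclear protein, rose by 2.40 and 2.39. Among genes of bile acid and steroid handling, Cyp7b1, Cyp8b1 and Abcb11 (the bile salt export pump) fell by 2.45, 1.94 and 1.80, and Selenbp2, a selenium-binding protein gene, fell by 2.72. Cyp7b1 and Selenbp2 are on the male-biased list, and fell by 1.27 and 1.69 without the Y-expressing libraries. Without the 7 libraries with other tissue markers Abcb11 fell by 1.15, and the fold of Saa3 was also over 1.5 times smaller.

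The spread between libraries also differed. The median SD over genes was 0.199 in the 8 oil libraries and 0.244 in the 9 CCl4 libraries, and the SD was higher after CCl4 in 65.4% of genes. Without WT_CCl4 1 and 3 this share was 52.4%.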
